A study of Mus musculus with 8 samples.

Results

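The comparison described here sets alveolar macrophages of mice at tumor day 35 (d35) against those at tumor day 15 (d15), without the naive reference. It takes 5 of the 8 libraries of the series, namely the 2 d15 and the 3 d35 libraries, chosen by their labels alone. The 3 libraries of tumor-free mice are not used, except in an alternative fit named below. All mice were C57BL/6, and those of both groups had received KP cells, a mouse lung tumor line, by tail vein injection. The groups thus differ by label only in the day of harvest, and no genotype, drug or age is given for them. The growth protocol gives a harvest period of 15 to 30 days, which ends before the later label, so the later day is uncertain. Lung tissue-resident (alveolar) macrophages were sorted by flow cytometry, and RNA of 20000 sorted cells was made into cDNA from 1 ng with a SMART-Seq v4 kit and sequenced. The labels name the lung, and not single tumor foci, as the source of the cells. Separate animals are not named for the libraries, and p-values therefore reflect the spread between these libraries alone, which may be technical. The hour of harvest is not given in the labels. In bulk RNA of sorted cells, fewer cells of a type and less RNA per cell cannot be told apart.

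Alveolar macrophages live in the airspaces of the lung, where they clear surfactant, debris and particles. Their identity depends on the cytokine GM-CSF and on the lipid-sensing nuclear receptor PPAR gamma. Macrophages next to tumors or damaged tissue are known to take up lipid and dead cells, to secrete proteases that cut the extracellular matrix, and to release chemokines and growth factors. Like most cells they also keep a circadian clock, a feedback loop in which the activators BMAL1 (Arntl) and CLOCK drive genes of the PER, CRY and REV-ERB repressors.

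The deposited table gave 12701 genes per library as scaled CPM, that is, read counts set to a common library size. Reads recovered from it came to between 30756658 and 39572173 per library, and between 12505 and 12644 genes had at least 1 read. Lyz2, the lysozyme gene of macrophages, led every one of the 5 libraries. On the first principal component, with 63.9% of the variance, the d15 libraries lay at -26.3 and -28.5 and the d35 libraries at 28.8, 6.47 and 19.5. Replicate 2 of d35 thus lay nearest to d15, and replicate 1 farthest. Among the genes that changed, the d35 value nearest to d15 was that of replicate 2 in 266 of 427 genes (62.3%). The share over all genes was not computed, and these genes were called from the same values. The median SD of log2 values over all genes was 0.090 at d15 and 0.143 at d35. Values below are given for d15 replicates A and B, then for d35 replicates 1, 2 and 3.

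Of 12701 genes tested, 427 (3.36%) changed at an adjusted p of 0.05, by limma on log2(value + 1) with Benjamini-Hochberg adjustment over all genes. Of all genes, 301 (2.37%) rose from d15 to d35 and 126 (0.992%) fell. These shares are the background for the counts of list members given below. The rises were larger than the falls. Of the genes that rose, 197 did so at least 2-fold and 71 at least 4-fold, while 25 and 5 of those that fell passed these sizes. The median log2 fold change was 1.26 among genes that rose, -0.67 among those that fell and 0.0034 over all genes. In all 427 the groups did not overlap, which over all genes held for 19.2% with d35 above and 18.4% with d35 below. Rises made up 70.5% of the calls, against 57.3% after removal of a trend with transcript length and 54.4% by limma-voom on recovered reads. The number of calls depended on the d15 libraries, of which there were only 2. It was 22 without replicate A and 18 without replicate B, where the remaining d15 library is assumed to vary like the d35 libraries. Omitting a d35 library gave 159 calls for replicate 1, 650 for replicate 2 and 280 for replicate 3. Calls made under every one of these 5 omissions numbered 15. In the groups of genes below, no member was called without d15 replicate A or without replicate B unless it is named as such.

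**Figure D1:**
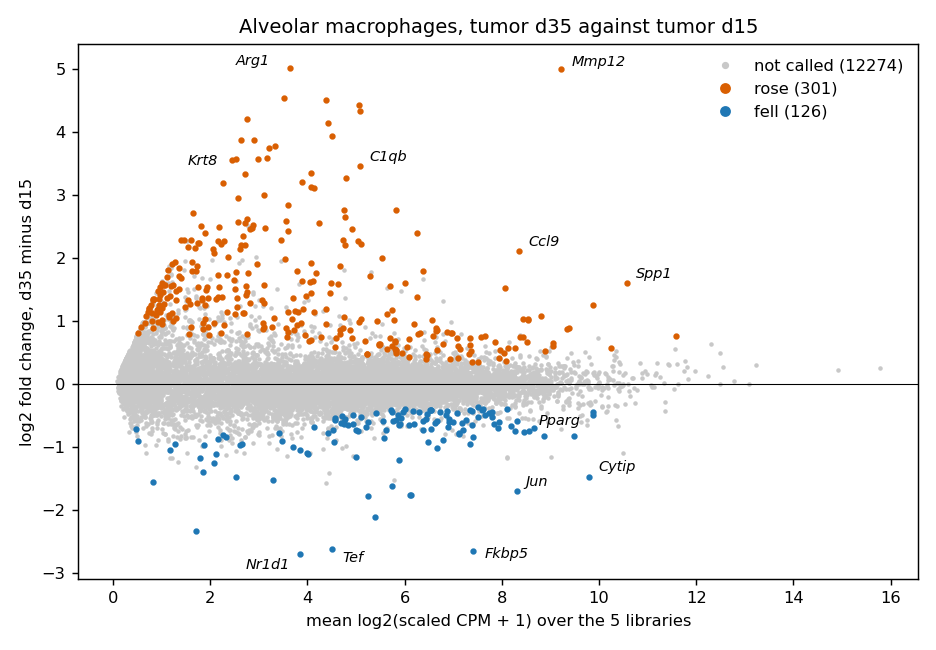
Each point is 1 of 12701 genes, placed by its mean log2(scaled CPM + 1) over the 5 libraries and its log2 fold change, d35 minus d15. Genes that rose (301, orange) reach 5.01 and those that fell (126, blue) reach -2.70, while most genes lie near the zero line.

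Genes of secreted matrix proteases were among the strongest rises. Mmp12, which encodes macrophage metalloelastase, was at 80.1 and 66.9 scaled CPM at d15 and 4258, 1476 and 2089 at d35. Every d35 library lay far above both d15 libraries, and d35 replicate 1 was the highest. The log2 fold change was 4.99 ± 0.37 (SE; limma adjusted p = 0.00149), and the call held in all 10 other settings and without any single library. Mmp13, the collagenase-3 gene, was at 0.212 and 1.26 at d15 and 33.5, 11.2 and 9.9 at d35, with d35 replicate 1 again the highest (log2 fold change 3.33 ± 0.50 SE, limma adjusted p = 0.0173). Adam8, a membrane-anchored metalloprotease gene of myeloid cells, was at 0.93 and 1.29 at d15 and 62.2, 18.5 and 18 at d35, a rise of 3.77 ± 0.48 SE on the log2 scale (limma adjusted p = 0.010). Mmp14, the membrane-type protease that activates pro-MMP2, was at 9.02 and 6.35 at d15 and 94.9, 28.7 and 67.4 at d35. Ctsk, the collagen-cutting cathepsin K, rose from a much higher base, at 596 and 522 at d15 and 1645, 1007 and 1403 at d35. Of 27 measured matrix protease and remodelling genes, 7 rose and none fell, against 2.37% and 0.992% of all genes. The other rises were Mmp2 and Adam17, and the list's median log2 fold change was 0.57. Mmp19, at 78.6 and 79.6 at d15 and 179.9, 127 and 113 at d35, missed the threshold (limma adjusted p = 0.0565), and the gelatinase gene Mmp9 ranged from 0.259 to 8.8 within d35 (limma adjusted p = 0.212). Without d15 replicate A or without replicate B only Mmp12 was called, limma-voom called 2 of the 27, and 5 were called without d35 replicate 1.

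Among the other genes of the 14 largest rises were those of cell fusion and of secreted proteins. Dcstamp and Ocstamp encode the membrane proteins by which macrophages fuse into osteoclasts and giant cells. Dcstamp was at 0.995 and 0.50 scaled CPM at d15 and 75.8, 23 and 34.5 at d35 and Ocstamp at 0.766 and 1.35 at d15 and 35.1, 14.3 and 25.1 at d35. In both genes no d15 library came near any d35 library, with log2 fold changes of 4.54 ± 0.43 and 3.58 ± 0.34 (SE; limma adjusted p = 0.0034 and 0.0034). Fam20c, the Golgi kinase that phosphorylates secreted proteins, was at 7.0 and 2.9 at d15 and 187, 65.2 and 111 at d35 (limma adjusted p = 0.00429). Adamdec1, a metalloprotease-like gene of tissue macrophages, was at 1.65 and 2.84 at d15 and 88.4, 36.4 and 112 at d35. Its highest value was in d35 replicate 3 and not in replicate 1. Clu, the extracellular chaperone clusterin, was at 2.79 and 2.84 at d15 and 101, 25.7 and 110.2 at d35, so that d35 replicate 2 was well below the other d35 libraries and still above d15. H2-M2, a non-classical major histocompatibility complex (MHC) class I gene, was at 3.67 and 4.99 at d15 and 243, 53.5 and 108 at d35. H2-M2 has close relatives among MHC class I genes, and how shared reads were assigned is unknown. The rises of Fam20c, Adamdec1, Clu and H2-M2 lay between 4.14 and 4.51 on the log2 scale. Fam20c was also called without d15 replicate A but not without replicate B (limma adjusted p = 0.0344 and 0.0784).

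**Figure D2:**
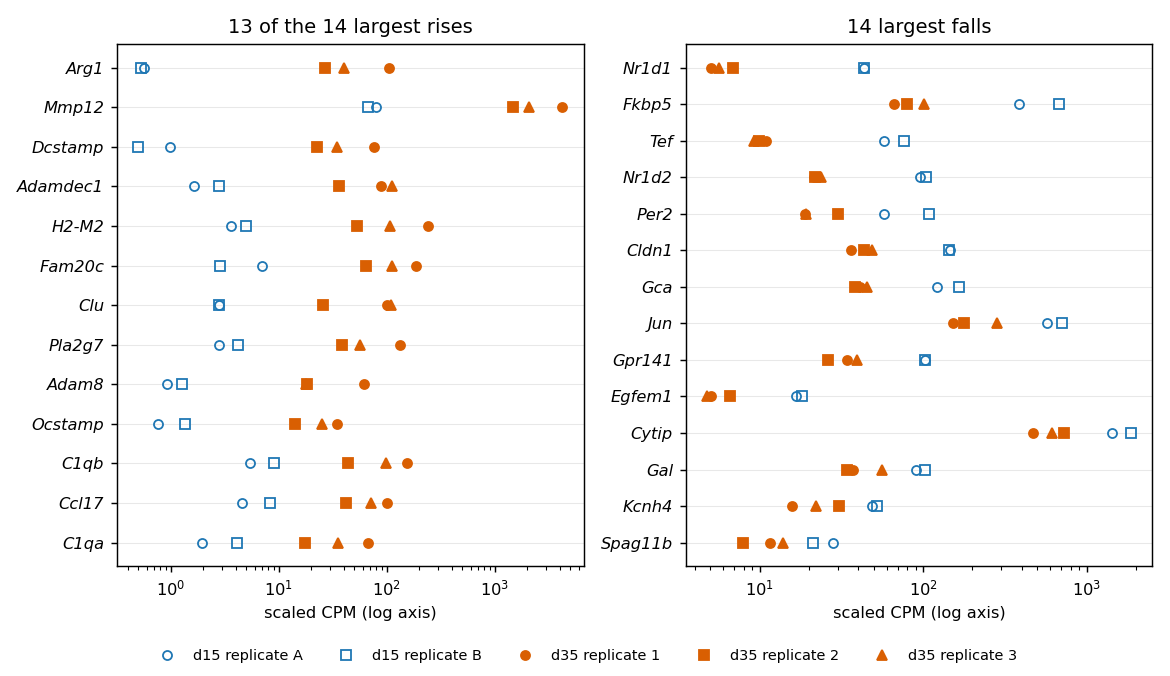
Scaled CPM on a log axis for 13 of the 14 largest rises (left) and the 14 largest falls (right), with open symbols for the 2 d15 libraries and filled symbols for the 3 d35 libraries. In all 27 genes the d35 symbols stand apart from the d15 symbols, as the naming rule required. Among the rises d35 replicate 2 is mostly the one nearest to d15.

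Genes of the lipid-associated macrophage state, a state known from macrophages that handle much lipid, formed the list with the largest share of rises. Of 20 such genes 8 rose and none fell, against 2.37% and 0.992% of all genes. The list's median log2 fold change was 0.62. Spp1, which encodes the secreted matrix protein osteopontin, was at 915 and 665 scaled CPM at d15 and 3031, 2140.3 and 2048 at d35, a rise of 1.60 ± 0.20 (SE; limma adjusted p = 0.00932). Cd63, a tetraspanin gene of late endosomes, was at 142 and 139 at d15 and 517, 324 and 402 at d35, and Gpnmb, a lysosomal membrane glycoprotein gene, at 516 and 409 at d15 and 966, 826 and 766 at d35. In both genes the groups did not overlap. Pla2g7, the lipoprotein-associated phospholipase A2 that degrades platelet-activating factor, was at 2.79 and 4.2 at d15 and 134, 38.6 and 57.2 at d35 and had the largest rise of the list, 3.93 ± 0.45 SE (limma adjusted p = 0.0067). Lpl, the lipoprotein lipase, Lipa, the lysosomal acid lipase, Ctsl, cathepsin L, and Syngr1 were the remaining rises. Trem2, a lipid receptor gene widely used to mark this state, was at 38.5 and 37.6 at d15 and 94.3, 59.8 and 54.5 at d35 (limma adjusted p = 0.087). Apoe was at 58 and 69.2 at d15 and 373, 81.7 and 131 at d35 and Cd9 at 5779 and 5630.2 at d15 and 5371, 5857 and 5927 at d35 (limma adjusted p = 0.227 and 0.996). Apoe was thus highest in d35 replicate 1, with d35 replicate 2 close to d15, while Cd9 overlapped between the groups. The number that rose was 4 by limma-voom and 3 without d35 replicate 1.

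Other lists of lipid handling genes, which share Lpl and Lipa with that one, held changes in both directions. Of 24 fatty acid storage and synthesis genes 4 rose and 2 fell, against 2.37% and 0.992% of all genes. The desaturase gene Scd2 was at 35.1 and 35.2 scaled CPM at d15 and 68.7, 71.8 and 75.1 at d35, with little spread in either group (log2 fold change 1.01 ± 0.09 SE, limma adjusted p = 0.00264). Lpcat1, which remodels surfactant phospholipid, was at 12.5 and 13.6 at d15 and 30.3, 23.2 and 25.8 at d35, and Scd1 and Lpl also rose. Cidec, a lipid droplet fusion gene, went the other way, at 626 and 681 at d15 and 346, 409 and 359.6 at d35 (log2 fold change -0.82 ± 0.10 SE, limma adjusted p = 0.00746), and Dgat2, which makes triglyceride, was at 195 and 177 at d15 and 129.8, 103 and 132 at d35. Of 13 genes of cholesterol efflux and lysosomal sterol handling 3 rose, namely Abca1, the efflux transporter, Cyp27a1, which makes 27-hydroxycholesterol, and Lipa. Abca1 was at 71.6 and 72.3 at d15 and 103, 101 and 93.6 at d35, a small change of 0.46 ± 0.08 SE (limma adjusted p = 0.0296). None of 24 cholesterol biosynthesis genes was called by limma, although 6 had an unadjusted p below 0.05, against 2449 of all 12701 genes. DESeq2 called 2 of the 24 up and 1 down, and edgeR and limma-voom none. None of 22 fatty acid oxidation genes was called by limma, with 2 below an unadjusted p of 0.05, 2 down by DESeq2 and none by edgeR or limma-voom. Of 38 lysosomal hydrolase and proton pump genes 5 rose and 1 fell, against 2.37% and 0.992% of all genes. Among the rises was Ctse, cathepsin E, at 0.277 and 0.0758 at d15 and 4.95, 3.21 and 6.37 at d35. Mitf, a transcription factor of lysosomal genes, fell from 36.7 and 37 to 25.8, 24.8 and 26.8. Its relative Tfe3 rose by 0.39 ± 0.08 SE on the log2 scale (limma adjusted p = 0.041). By limma-voom 3 storage genes rose and 1 fell, and none of the sterol genes was called. Without d35 replicate 1 the storage list had 1 rise and 1 fall, the sterol list none and the lysosome list 2 rises.

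Arg1, which encodes arginase 1 and is a marker of alternatively activated macrophages, had the largest rise of all genes under the naming rule. It was at 0.571 and 0.531 scaled CPM at d15 and 106, 27.1 and 40.2 at d35, low at d15 and highest in d35 replicate 1. The log2 fold change was 5.01 ± 0.48 (SE; limma adjusted p = 0.00361), with no call without d15 replicate A or B. Ccl24, an eosinophil chemoattractant induced by interleukin 4, was at 0.0489 and 0.318 at d15 and 30.6, 15.8 and 18.4 at d35, from 11 reads in the d15 libraries together. It was called without any single library (log2 fold change 4.21 ± 0.28 SE, limma adjusted p = 0.00133). Ccl17, a ligand of the chemokine receptor CCR4 of T cells, was at 4.58 and 8.26 at d15 and 102, 42.5 and 72.4 at d35 (limma adjusted p = 0.00524). Irf4, a transcription factor of the same state, was at 2.59 and 2.02 at d15 and 11.6, 8.93 and 10.2 at d35, close together within each group. These 4 were the rises among 19 genes of arginase and alternative activation, against 2.37% of all genes. None of the 19 fell, and the list's median log2 fold change was 0.52. Retnla, another classical marker of that state, was at 1.35 and 1.2 at d15 and 2.03, 0.32 and 4.33 at d35 (limma adjusted p = 0.82), the mannose receptor gene Mrc1 at 1513 and 1555 at d15 and 1292, 1309 and 1034 at d35 (limma adjusted p = 0.187) and Chil3 at 25998 and 30809.9 at d15 and 41613, 26561 and 32329.5 at d35 (limma adjusted p = 0.801). The 4 rises were called in each fit without a d35 library, and limma-voom called 2.

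Chemokine ligand genes gave 7 rises and no fall among 20, against 2.37% and 0.992% of all genes. The list's median log2 fold change was 0.57. The summed level of the 20 was 8905 and 10058 scaled CPM at d15 and 10321, 10094 and 9550 at d35. Ccl9, a CCR1 ligand made by myeloid cells, was the most abundant of the 7 rises. It was at 126 and 146 scaled CPM at d15 and 835, 479 and 501 at d35 (log2 fold change 2.10 ± 0.22 SE, limma adjusted p = 0.00508). Cxcl16, a scavenger receptor and CXCR6 ligand, was at 8.63 and 11.2 at d15 and 95.8, 33.1 and 63.8 at d35. Ccl4, a chemokine that draws monocytes and T cells, was at 1.74 and 1.8 at d15 and 11.9, 4.91 and 10.2 at d35, Cxcl3, a chemokine that draws neutrophils, at 9.08 and 6.11 at d15 and 29.6, 16.2 and 32.4 at d35 and Cxcl14 at 12.1 and 11.4 at d15 and 32.7, 21.4 and 31.6 at d35. All of these stood apart between the groups, as did Ccl17 and Ccl24 above. The neutrophil attractant Cxcl2 went with no such gap, at 471 and 425 at d15 and 199.95, 283 and 516 at d35 (limma adjusted p = 0.437). Without d15 replicate A or without replicate B only Ccl24 was called. The rises numbered 2 by limma-voom, 4 without d35 replicate 1 and 3 without d35 replicate 3, the last with 2 falls beside them.

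Complement C1q genes, whose products tag dead cells and immune complexes for uptake, were higher at d35 in every library. C1qb was at 5.46 and 9.11 scaled CPM at d15 and 156, 43.8 and 98.5 at d35, C1qa at 1.94 and 4.17 at d15 and 67.8, 17.7 and 35.5 at d35 and C1qc at 2.56 and 4.99 at d15 and 76, 19.3 and 40.6 at d35. The 3 subunits kept the same order of libraries, with d35 replicate 1 highest and replicate 2 lowest among d35. Their log2 fold changes were 3.46 ± 0.46, 3.21 ± 0.49 and 3.12 ± 0.50 (SE; limma adjusted p = 0.0111, 0.0182 and 0.0203). They belong to a list of 21 markers of monocytes and interstitial macrophages in the table. Of the 21, 5 rose and none fell, against 2.37% and 0.992% of all genes, and the list's median log2 fold change was 0.26. The other rises were Plac8, at 0.44 and 0.318 at d15 and 4.63, 2.85 and 5.69 at d35, and Itgam, the CD11b integrin chain that alveolar macrophages normally carry little of, at 0.864 and 1.62 at d15 and 11.9, 5.28 and 7.86 at d35 (limma adjusted p = 0.010 and 0.018). The list's summed level was 635 and 733 scaled CPM at d15 and between 813 and 1352 at d35. The part of such cells in the rises above was not tested. Among 13 core macrophage genes Csf1r, the receptor for M-CSF, was at 426 and 385 at d15 and 721, 568 and 624 at d35. It rose by 0.65 ± 0.11 on the log2 scale (SE; limma adjusted p = 0.0299) and was not called without d35 replicate 1. None of the 21 was called by limma-voom, while 5 rose without d35 replicate 1 and 3 without d35 replicate 3. Mfge8, a bridge between dying cells and phagocytes, was at 16.9 and 16.9 at d15 and 252, 63.1 and 111 at d35, and Cd300lb, an activating receptor gene of myeloid cells, at 31.7 and 32.1 at d15 and 88.7, 69.2 and 64.4 at d35. Both rose (limma adjusted p = 0.0258 and 0.00718), the only calls among 19 genes of apoptotic cell uptake. The uptake receptor gene Mertk stayed within a narrow range, at 449 and 438 at d15 and 482, 491 and 413 at d35 (limma adjusted p = 0.819).

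Several cytokine and growth factor genes rose. Il1b, which encodes the pro-inflammatory cytokine interleukin 1 beta, was at 37.1 and 19.9 scaled CPM at d15 and 199, 79.8 and 200.1 at d35, so that d35 replicates 1 and 3 reached the same level and replicate 2 a lower one (log2 fold change 2.39 ± 0.41 SE, limma adjusted p = 0.0275). Il1a was at 73.9 and 50.1 at d15 and 139, 103 and 136 at d35 (limma adjusted p = 0.0317). They were the only calls among 27 genes of NF-kB and interleukin 1, against 2.37% of all genes that rose. Neither was called without an intensity trend, by limma-voom or without any single library other than d35 replicate 2. Without d35 replicate 3, 2 other genes of the list fell. Tnf, in contrast, had lower values at d35, at 129 and 80.2 at d15 and 32.7, 19.5 and 65.5 at d35 (limma adjusted p = 0.109). Of 21 growth factor genes 3 rose and none fell, against 2.37% and 0.992% of all genes. Inhba, the activin A subunit, was at 0.93 and 0.561 at d15 and 22.2, 6.8 and 12.2 at d35, Csf1, the M-CSF ligand itself, at 0.995 and 0.318 at d15 and 15.4, 4.67 and 7.02 at d35, and Igf1, insulin-like growth factor 1, at 26.8 and 25.3 at d15 and 119, 78.6 and 51.6 at d35. These were below 1 in both d15 libraries for Inhba and Csf1, and every d35 library was above them (limma adjusted p = 0.0126, 0.0254 and 0.0341). Limma-voom called none of the 3. Ltbp3, which binds latent TGF-beta, was at 1.68 and 1.29 at d15 and 17.4, 7.62 and 8.43 at d35. It was the only call among 20 TGF-beta genes, against 2.37% of all genes that rose.

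Antigen presentation and interferon genes gave few calls, though many outside the MHC class II list had an unadjusted p below 0.05. None of 14 MHC class II genes was called by limma, with 1 below an unadjusted p of 0.05, 1 down by DESeq2 and none by edgeR or limma-voom, while limma without d35 replicate 2 called 4 rises. Ciita, their master activator, was at 26.8 and 25.1 at d15 and 45.3, 25.1 and 49.3 at d35. All 20 MHC class I and peptide loading genes had a positive log2 fold change, with a median of 0.28, and 2 of them rose, the transporter gene Tap1, at 51.7 and 49.9 at d15 and 87.3, 65.4 and 80.7 at d35, and the transactivator gene Nlrc5, at 10.6 and 12.6 at d15 and 20.5, 17.7 and 20 at d35 (limma adjusted p = 0.0492 and 0.0442). The heavy-chain genes of this list have close copies, and their values are uncertain in that respect. Of 24 type I interferon genes 2 rose, Usp18 at 0.766 and 0.561 at d15 and 4.39, 3.21 and 2.26 at d35 and Cmpk2 at 1.48 and 0.955 at d15 and 6.13, 3.3 and 3.75 at d35. Of 19 interferon gamma genes 1 rose, Ido1, the tryptophan-degrading enzyme, which had 1 read in the d15 libraries together and stood at 2.9, 1.66 and 3.6 at d35. Iigp1, a GTPase of the same response, was at 2.4 and 2.26 at d15 and 16.8, 5.4 and 20.3 at d35 (limma adjusted p = 0.062). Without d35 replicate 2, the interferon gamma list had 9 rises and the MHC class I list 7, and without d35 replicate 1 both had none. An unadjusted p below 0.05 was found for 11 of the MHC class I, 10 of the type I interferon and 14 of the interferon gamma genes. Over all 12701 genes it was found for 2449. All d35 libraries lay above both d15 libraries in 13, 13 and 12 members of these lists and below in 0, 1 and 2. Over all genes these shares were 19.2% and 18.4%, and 2.37% of all genes rose. Limma-voom called no gene of the 3 lists. Of 16 costimulation and checkpoint genes 3 rose. Nectin2, a ligand of TIGIT and CD226, was at 2.59 and 3.75 at d15 and 8.66, 9.81 and 8.69 at d35, Lilrb4a, an inhibitory receptor gene with a close copy, at 240.00 and 244 at d15 and 472, 371 and 388 at d35, and Lgals9, galectin 9, at 83.9 and 84 at d15 and 145, 112 and 139 at d35 (limma adjusted p = 0.0151, 0.0165 and 0.0324). Cd274, which encodes PD-L1, was at 247 and 178 at d15 and 278, 289 and 266 at d35 (limma adjusted p = 0.15).

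Genes of oxidative stress and of glucose use gave a few rises. Of 24 oxidative stress genes 3 rose and none fell, against 2.37% of all genes that rose. An unadjusted p below 0.05 was found for 12 of these 24 and for 13 of 25 glycolysis and hypoxia genes, against 2449 of all 12701 genes. All d35 libraries lay above both d15 libraries in 13 and 16 members of these lists and below in 0 and 3. Over all genes these shares were 19.2% and 18.4%. Slc7a11, the cystine importer, was at 6.6 and 8.87 scaled CPM at d15 and 43.5, 18.8 and 27.6 at d35, the thioredoxin reductase gene Txnrd1 at 212 and 184 at d15 and 278, 291 and 292 at d35 and the sulfiredoxin gene Srxn1 at 42.6 and 40 at d15 and 66.3, 71.9 and 59.9 at d35 (limma adjusted p = 0.0296, 0.0204 and 0.0186). None of the 24 was called without d35 replicate 1, and limma-voom called 2. Slc16a3, the lactate exporter, was the only call among 25 genes of glycolysis and hypoxia, at 56.7 and 52.4 at d15 and 108, 88.3 and 91.8 at d35 (limma adjusted p = 0.0111), and the glucose transporter gene Slc2a1 was at 32.6 and 23.8 at d15 and 73.6, 42.6 and 58.7 at d35 (limma adjusted p = 0.0579). Among 20 pattern recognition receptor genes Clec4d was the only call. The single calls of Slc16a3 and Clec4d were rises and stand against 2.37% of all genes that rose. The scavenger receptor gene Msr1, at 51.2 and 32.4 at d15 and 214, 83.5 and 127 at d35, lay just past the threshold (limma adjusted p = 0.0502).

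Of the gene lists, that of the circadian clock had the largest share of falls. Of 18 measured clock genes, 7 fell and 1 rose, against 0.992% and 2.37% of all genes. The list's median log2 fold change was -0.55. The repressor gene Nr1d1 (REV-ERB alpha) was at 43.2 and 43.2 scaled CPM at d15 and 5.05, 6.83 and 5.63 at d35, and its paralog Nr1d2 (REV-ERB beta) at 95 and 104 at d15 and 21.4, 21.7 and 23.6 at d35. The 2 d15 libraries were almost equal in Nr1d1, and no d35 library came near them. Dbp and Tef, transcription factors that the clock drives and that bind D-box elements, were at 7.06 and 8.02 at d15 and 0.746, 0.867 and 0.51 at d35 and 57.7 and 75.8 at d15 and 10.9, 9.84 and 9.22 at d35. The log2 fold changes were -2.70 ± 0.15 for Nr1d1, -2.11 ± 0.10 for Nr1d2, -2.33 ± 0.18 for Dbp and -2.62 ± 0.15 for Tef (SE; limma adjusted p = 0.000738, 0.000469, 0.00149 and 0.000738). These 4 were called in all 10 other settings and without any single library. The repressor genes Per2, Per3 and Cry2 also fell. Per2 was at 57.3 and 108 at d15 and 19, 30.1 and 19.3 at d35, Per3 at 3.6 and 7.84 at d15 and 1.13, 1.9 and 1.35 at d35 and Cry2 at 8.2 and 11.3 at d15 and 2.55, 3.61 and 2.47 at d35, with the 2 d15 libraries well apart in both Per genes (limma adjusted p = 0.0204, 0.0473 and 0.0155). Arntl, the activator BMAL1, went the other way, at 16.6 and 16.8 at d15 and 28.6, 33.9 and 31 at d35 (log2 fold change 0.86 ± 0.12 SE, limma adjusted p = 0.0124). Its partner Clock was at 56.9 and 69.7 at d15 and 51.3, 55.4 and 44.5 at d35 (limma adjusted p = 0.225), Per1 at 51.4 and 63 at d15 and 24.8, 41.4 and 61.3 at d35 (limma adjusted p = 0.45), Cry1 at 44.5 and 52.6 at d15 and 42.2, 56 and 42.9 at d35 (limma adjusted p = 0.894) and Nfil3, which opposes Dbp on the D-box, at 117 and 97.3 at d15 and 130.5, 143 and 172 at d35 (limma adjusted p = 0.11). Per1 and Cry1 overlapped between the groups. Per2 was not called by 1 of the 10 other settings, and without d15 replicate A or B only the 4 genes named above were called. Since the hour of harvest is not given, its part in these values was not tested.

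**Figure D3:**
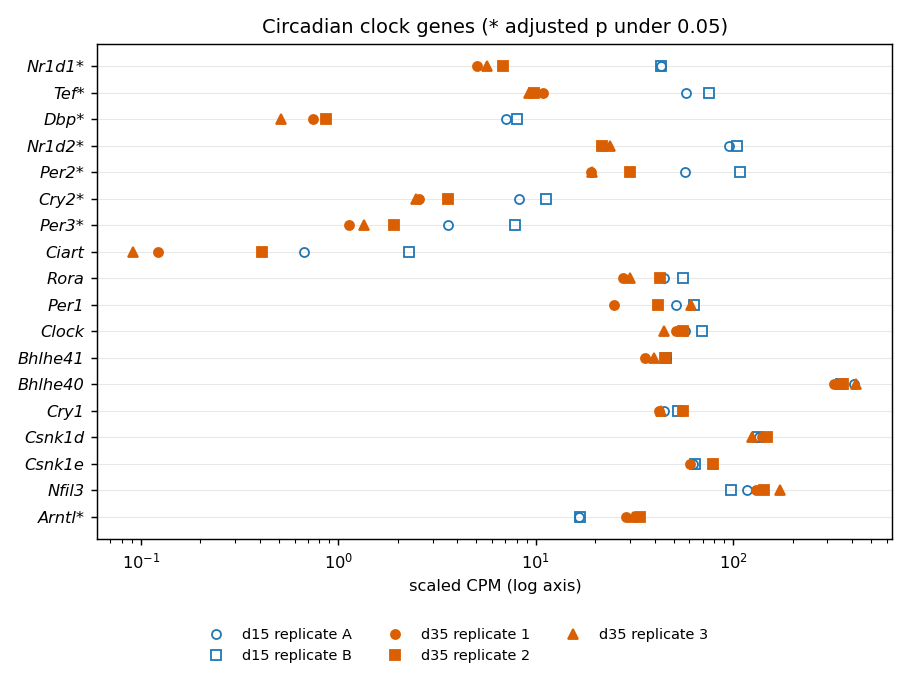
Scaled CPM on a log axis for the 18 clock genes, ordered by log2 fold change, with open symbols for d15 and filled symbols for d35. An asterisk marks the 8 genes with an adjusted p under 0.05, of which Arntl alone is higher at d35.

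Promoter sequence was looked at for the clock genes, because their products bind known short elements. From RefSeq (GRCm38.p6), 15 of the 18 genes matched a promoter entry, and the 250 bases before the start were searched on both strands. The E-box CACGTG is the element of BMAL1 and CLOCK, the D-box TTATGTAA that of Dbp and Tef, and TAGGTCA the element of the REV-ERB and ROR receptors. TGANTCA is the element of AP-1, the dimer of Jun and Fos proteins, and matches of different motifs were counted independently. Of 32851 promoters of all genes, 6.02% held the E-box, 0.819% the D-box, 2.23% the REV-ERB element and 6.75% the AP-1 element. Of the 12845 promoters of genes in the table, the shares were 8.14%, 0.498%, 1.70% and 4.57%. Among promoters of genes that fell these shares were 10.3%, 0.685%, 0.685% and 4.11%, and among those of genes that rose 7.97%, 0.332%, 3.99% and 9.30%. Of the 7 clock genes that fell, 6 had a promoter entry, and matches were found for Tef and Per3. Windows of Nr1d1, Nr1d2, Dbp and Cry2 held none of the 4 motifs. Clock genes that were not called held matches too, with 3 E-boxes in Ciart, 1 each in Cry1, Per1 and Bhlhe41 and 1 REV-ERB element in Nfil3. Tef (chr15:81802534-81802563, plus strand) has an E-box 127 bases before an annotated start. The 30 bases around it are shown, since annotated exons of other Tef transcripts overlap the window. Another Tef window, chr15:81811164-81811413, held an E-box 138 bases before its start and is not shown. Per3 (chr4:151044666-151044915, minus strand) has the D-box at 205 and at 158 bases before its start, and the window is shown whole. Mmp13 (chr9:7272264-7272513, plus strand), a matrix protease gene that rose, is shown beside them for its AP-1 element 35 bases before the start. It was picked by hand, as Jun was among the largest falls, and a link between Jun and Mmp13 was not tested. For Mmp12 the window chr9:7347124-7347373 held an AP-1 match 44 bases before the start, and the window chr9:7344147-7344396 held none. Capitals mark the motif, and each sequence runs 5′ to 3′ on the strand of its gene.
Tef: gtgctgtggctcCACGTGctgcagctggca
Per3: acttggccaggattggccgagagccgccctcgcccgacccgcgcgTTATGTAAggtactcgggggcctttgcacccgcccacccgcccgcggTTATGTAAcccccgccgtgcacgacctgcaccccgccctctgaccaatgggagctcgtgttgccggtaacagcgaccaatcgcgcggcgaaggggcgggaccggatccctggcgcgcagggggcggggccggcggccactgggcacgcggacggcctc
Mmp13: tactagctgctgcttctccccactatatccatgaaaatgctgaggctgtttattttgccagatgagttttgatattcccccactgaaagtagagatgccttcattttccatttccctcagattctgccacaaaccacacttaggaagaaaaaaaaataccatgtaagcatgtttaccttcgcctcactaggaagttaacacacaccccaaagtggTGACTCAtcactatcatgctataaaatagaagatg
A match describes the letters only, and whether these elements were bound was not measured.

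Fkbp5, a co-chaperone of the glucocorticoid receptor and one of its best known target genes, had the largest fall after Nr1d1 under the naming rule. It was at 384 and 679.8 scaled CPM at d15 and 66.1, 79.2 and 101 at d35, so that both d15 libraries far exceeded every d35 library. The log2 fold change was -2.64 ± 0.25 (SE; limma adjusted p = 0.0034), and the call held in all settings and without any single library. Fkbp4, the co-chaperone that opposes Fkbp5 at the receptor, fell by less, at 251 and 244 at d15 and 168, 181 and 178 at d35 (log2 fold change -0.49 ± 0.07 SE, limma adjusted p = 0.0173). They were the only calls among 16 genes of the glucocorticoid receptor and its targets, against 0.992% of all genes that fell. The list's median log2 fold change was -0.41. Klf9, another target, was at 42.6 and 78.5 at d15 and 28, 31.1 and 36.3 at d35 and Tsc22d3 (GILZ) at 1084 and 1709.5 at d15 and 774, 1035 and 1310.2 at d35 (limma adjusted p = 0.103 and 0.419). In Fkbp5, Klf9 and Tsc22d3 alike, d15 replicate B was well above replicate A. The receptor gene Nr3c1 was at 178 and 189.98 at d15 and 138, 169.9 and 155 at d35 (limma adjusted p = 0.211). Without d15 replicate A, without replicate B or without d35 replicate 1, only Fkbp5 was called in this list.

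Of 21 immediate-early genes, which respond quickly to signals and to tissue dissociation, 1 fell and none rose, against 0.992% of all genes that fell. In 7 of the 21 all d35 libraries lay below both d15 libraries, against 18.4% of all genes. Jun, an AP-1 subunit, was the gene that fell, at 576 and 712 scaled CPM at d15 and 151, 178 and 284 at d35 (log2 fold change -1.69 ± 0.24 SE, limma adjusted p = 0.0144). Fos, its partner, was at 2109.7 and 2436 at d15 and 559, 1279 and 1668 at d35 (limma adjusted p = 0.186). In both, d35 replicate 1 was lowest and replicate 3 highest among d35. Egr1, at 402 and 496 at d15 and 114, 152 and 448 at d35, and Dusp1, at 1599 and 1986 at d15 and 564, 1357 and 1844 at d35, overlapped between the groups through d35 replicate 3. The median log2 fold change of the list was -0.45, and 20 members had a negative one. Their summed level was 9388 and 11113 scaled CPM at d15, and 4118, 6259 and 9032 at d35. This level thus moved with the groups and within d35, and its part in the falls above was not tested. Without d35 replicate 3, 5 of the 21 fell.

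The remaining large falls were in genes of adhesion, calcium binding and signalling. Cldn1, the tight junction protein claudin 1, was at 145 and 145 scaled CPM at d15 and 35.9, 43.4 and 48.3 at d35 (log2 fold change -1.76 ± 0.12 SE, limma adjusted p = 0.00133). Gca, the calcium-binding protein grancalcin of phagocytes, was at 122 and 165 at d15 and 41, 38.1 and 45.1 at d35 (log2 fold change -1.76 ± 0.14 SE, limma adjusted p = 0.00181). Both were called without any single library. Cytip, which binds cytohesins and acts on leukocyte adhesion, was the most abundant of these genes, at 1438 and 1874 at d15 and 472, 725 and 612 at d35 (limma adjusted p = 0.010). The orphan receptor gene Gpr141 was at 103 and 103 at d15 and 34.4, 26.3 and 39.6 at d35 and Egfem1 at 16.7 and 18.2 at d15 and 5.01, 6.56 and 4.75 at d35, in both with the d15 libraries close together. Gal, the neuropeptide galanin, was at 90.8 and 103 at d15 and 37.2, 34 and 55.7 at d35, the potassium channel gene Kcnh4 at 48.9 and 52.1 at d15 and 15.8, 30.4 and 22.2 at d35 and the defensin-like gene Spag11b at 28 and 21.2 at d15 and 11.5, 7.87 and 13.8 at d35. The last 3 lay nearer the threshold, with limma adjusted p values of 0.0212, 0.0423 and 0.0473.

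Genes of DNA replication and the cell cycle gave 3 calls, with most members lower at d35. Of 28 genes 3 fell and none rose, against 0.992% of all genes that fell. A negative log2 fold change was found in 23, with a list median of -0.37. An unadjusted p below 0.05 was found for 17, against 2449 of all 12701 genes. In 15 all d35 libraries lay below both d15 libraries, against 18.4% of all genes, and in 3 all lay above. Ccnd2, cyclin D2, was at 276 and 316 scaled CPM at d15 and 172, 224 and 177 at d35. Pcna, the sliding clamp of DNA polymerase, was at 112 and 108 at d15 and 83.1, 86.4 and 77.4 at d35, and Mcm7, a subunit of the replicative helicase, at 73.8 and 63 at d15 and 47.5, 48.8 and 39.5 at d35. The changes were between -0.64 and -0.41 on the log2 scale (limma adjusted p = 0.0414, 0.0423 and 0.0473). The proliferation marker gene Mki67 was at 44 and 42.1 at d15 and 40.3, 51.6 and 27.4 at d35, with the d15 values inside the range of d35 (limma adjusted p = 0.775). DESeq2 called 12 falls and 2 rises in this list, and limma-voom, limma without an intensity trend, limma with a pseudocount of 4 and limma without any single library other than d35 replicate 2 called none. Without d35 replicate 2, limma called 6 falls and 2 rises.

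The identity genes of alveolar macrophages were abundant in both groups, with a few shifts. Siglecf, the sorting marker Siglec-F, was at 589.7 and 558 scaled CPM at d15 and 557, 644 and 570.3 at d35 and Itgax, the CD11c chain, at 809 and 744 at d15 and 969, 920.1 and 818 at d35 (limma adjusted p = 0.875 and 0.312). The 95% interval of the difference was -0.18 to 0.25 for Siglecf and -0.02 to 0.45 for Itgax on the log2 scale. Cd68, a lysosomal macrophage marker, was at 1107 and 1048 at d15 and 1413, 1348 and 1440.4 at d35 (limma adjusted p = 0.0751). Of 30 identity genes 3 fell and 1 rose, against 0.992% and 2.37% of all genes. The list's median log2 fold change was -0.07. Pparg, the nuclear receptor that sets this identity, was at 488 and 540.4 at d15 and 285, 339 and 301 at d35 (log2 fold change -0.74 ± 0.10 SE, limma adjusted p = 0.011). Perp, a desmosome-associated membrane protein gene, was at 397 and 412 at d15 and 249, 278 and 279 at d35, and Cidec is given above. Lpl was the rise, at 2607 and 1928 at d15 and 3934, 3782 and 3744 at d35. Marco, a scavenger receptor gene of these cells, ranged from 155 to 665 within d35 and was at 523 and 323 at d15 (limma adjusted p = 0.803). Fabp1 was at 193 and 172 at d15 and 94.1, 141 and 88.2 at d35 (limma adjusted p = 0.0676). The 3 falls were called without d35 replicate 1 and without d35 replicate 3, and the rise of Lpl was not.

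Some keratin and junction genes of epithelial cells rose, 5 of 17 epithelial and tumor genes in the table, against 2.37% of all genes. None of the list fell. Krt8 and Krt18, the keratin pair of simple epithelia, were at 0.31 and 0.318 at d15 and 18.8, 10.1 and 16 at d35 and at 0.212 and 0.258 scaled CPM at d15 and 18.5, 7.26 and 18.2 at d35. In both, all d35 libraries were far above the d15 libraries, which agreed closely. Their log2 fold changes were 3.56 ± 0.25 and 3.56 ± 0.36 (SE; limma adjusted p = 0.00133 and 0.00453), and Krt8 was called without any single library. Krt7 was at 1.45 and 1.11 at d15 and 15.6, 7.71 and 15.5 at d35, the mucin gene Muc1 at 0.734 and 2.02 at d15 and 17.2, 5.83 and 21 at d35 and the claudin gene Cldn7 at 1.58 and 1.38 at d15 and 5.88, 3.73 and 6.81 at d35. These 5 were the rises of the list, in which 7 members had a negative log2 fold change. A few epithelial genes outside it are given as values only, since they were picked for being higher at d35 and lend the rises no support. Met, the receptor of hepatocyte growth factor, was at 0.375 and 0.197 at d15 and 17.1, 6.41 and 10.9 at d35, and Lama3, a laminin chain of epithelial basement membrane, at 0.0489 and 0.0758 at d15 and 2.48, 2.57 and 2.29 at d35. Krt20, Cldn2 and Foxa1 had no read in either d15 library and were at 5.64, 2.18 and 4.72, at 9.56, 2.63 and 6.73 and at 1.61, 1.05 and 1.29 at d35. The other 12 members of the list were not called. Epcam was at 213 and 199 at d15 and 108, 85.9 and 167 at d35 and Sftpc, the surfactant gene of type II cells, at 32.2 and 45.4 at d15 and 7.65, 16.4 and 20.7 at d35 (limma adjusted p = 0.11 and 0.0828). Krt19, which alveolar macrophages themselves express, was at 982 and 899 at d15 and 831, 1047 and 815 at d35 (limma adjusted p = 0.814). Since Krt19 makes up most of it, the list's summed level was alike in both groups, between 1251 and 1369 scaled CPM over the 5 libraries. Krt8 and Krt18 have processed copies in the genome, which leaves their values uncertain in that respect. Among d35 libraries Krt7, Krt8 and Krt18 were lowest in replicate 2, as were Mmp12, Arg1 and C1qb, and the part of epithelial or tumor cell RNA in those rises was not tested. Limma-voom called 1 of the 17, as did the fits without d15 replicate A or without replicate B (Krt8). Without d35 replicate 1 there were 3 rises, and without d35 replicate 3 there were 3 rises and 1 fall.

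**Figure D4:**
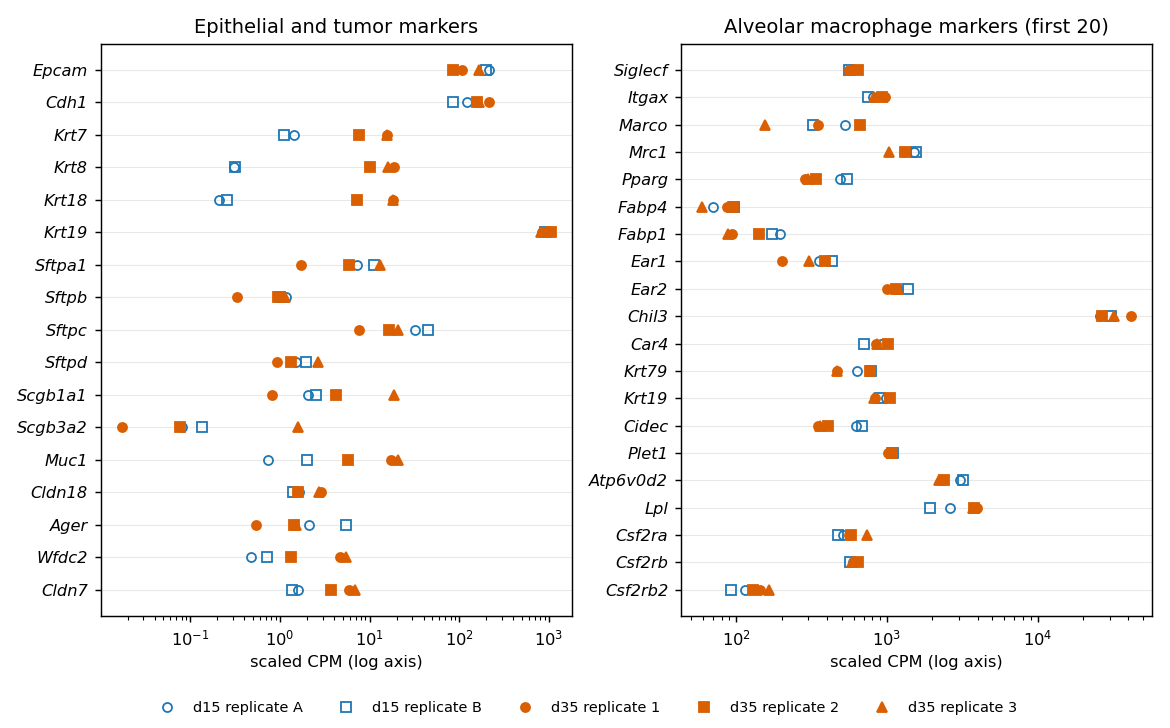
Scaled CPM on a log axis for the 17 epithelial and tumor markers in the table (left) and for 20 of the 30 alveolar macrophage markers (right), with open symbols for d15 and filled symbols for d35. Krt7, Krt8, Krt18, Muc1 and Cldn7 lie higher at d35, Siglecf overlaps between the groups, and Pparg and Cidec lie lower at d35.

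Markers of other cell types gave 1 further call. As a background for the counts below, 2449 of all 12701 genes had an unadjusted p below 0.05. None of 16 endothelial genes was called by limma, edgeR, DESeq2 or limma-voom, with 4 below an unadjusted p of 0.05, and their sum was between 359 and 409 scaled CPM in all 5 libraries. The 12 fibroblast genes had no limma call, 1 unadjusted p below 0.05, 1 rise by DESeq2 and 1 by limma without d35 replicate 3, at a sum of 25.1 to 43.1. Of 15 T and NK cell genes none was called by limma, although Il7r, at 1.45 and 1.35 at d15 and 30.1, 5.89 and 10.9 at d35, lay at the threshold (adjusted p = 0.0501) and was called by edgeR and DESeq2 but not by limma-voom. The list had 2 members below an unadjusted p of 0.05, and limma without d35 replicate 2 called 2 rises. Cd2, at 403 and 409 at d15 and 358, 385 and 418 at d35, made up most of its sum. None of 7 B cell genes was called by any of these 4 tools, with none below an unadjusted p of 0.05. None of 7 neutrophil genes was called by limma, edgeR or limma-voom, with 4 below an unadjusted p of 0.05 and 3 rises and 1 fall by DESeq2, while limma called 2 rises without d35 replicate 2 and 1 without replicate 3. Of 11 dendritic cell genes Clec9a was the only call, against 2.37% of all genes that rose. It was at 0.799 and 1.32 at d15 and 4.63, 3.55 and 4.41 at d35 (limma adjusted p = 0.0158).

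Housekeeping groups and the Fc receptor list showed no calls in the main limma test. As a background for the counts below, 2449 of all 12701 genes had an unadjusted p below 0.05. Over 35 nuclear oxidative phosphorylation genes and 34 cytosolic ribosomal protein genes, limma, edgeR, DESeq2 and limma-voom called none, and none had an unadjusted p below 0.05. The median log2 fold changes were 0.07 and -0.10. Of 7 mitochondrially encoded mRNAs all had a negative log2 fold change, with a median of -0.25, no limma, edgeR or limma-voom call, 1 fall by DESeq2 and 4 unadjusted p values below 0.05. Among 20 heat shock genes limma, edgeR and limma-voom called none, DESeq2 called 1 up and 1 down, and 5 had an unadjusted p below 0.05. Hspa8 was at 1787 and 1557 at d15 and 951, 1166 and 1260.1 at d35 (limma adjusted p = 0.0726). None of 7 Fc receptor genes was called by any of the 4 tools, with 1 unadjusted p below 0.05.

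**Figure D5:**
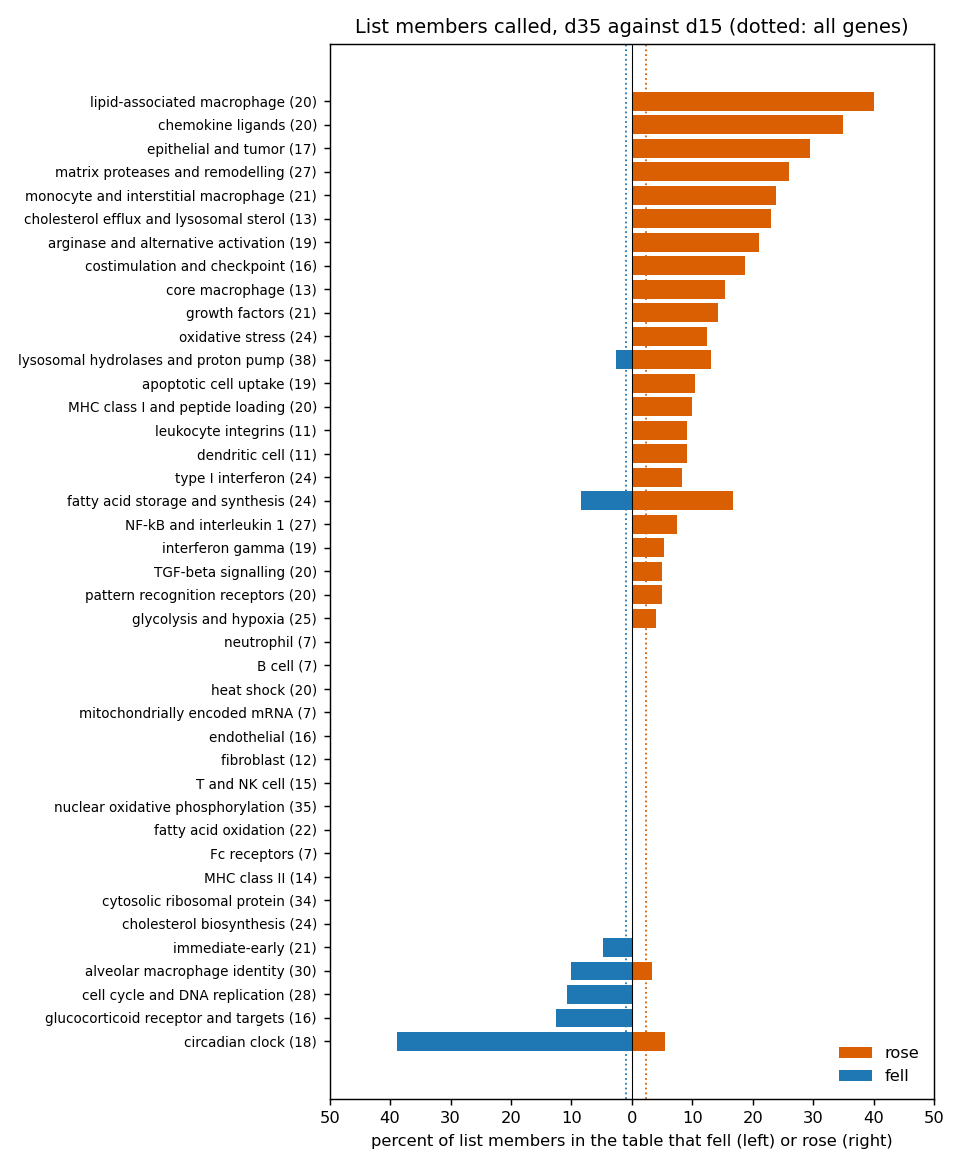
Bars give the percent of each list's members in the table that rose (orange, right) or fell (blue, left), for lists with at least 7 genes in the table, whose number stands in brackets. Dotted lines mark the shares over all genes, 2.37% and 0.992%, and the lipid-associated macrophage and chemokine lists reach farthest to the right while the circadian clock list reaches farthest to the left.

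The genes with the largest changes lie on many chromosomes. By GENCODE M21 on GRCm38 (mm10), Mmp12 spans chr9:7344381-7369499, Mmp13 chr9:7272514-7283331 and Arg1 chr10:24915221-24927484. C1qb and C1qa are neighbors, at chr4:136880129-136886187 and chr4:136895917-136898803. Nr1d1 spans chr11:98767932-98775333, Nr1d2 chr14:18204054-18239127, Tef chr15:81802421-81826863 and Fkbp5 chr17:28399094-28517527. All are annotated as protein coding, and how reads were assigned to them is not given in the sources used here.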

How the data were processed

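RNA sequencing of sorted alveolar macrophages was analysed for the 2 d15 and 3 d35 libraries. STAR 2.5, edgeR and the build mm10 are named in the submitters' processing notes. How reads were counted, with which annotation and strand setting, is not given in the sources used here. The deposited table holds a signal, here called scaled CPM, which the authors computed from reads. Adding 0.5 to the reads of a gene and dividing by the scaled library size plus 1 yields it, since 100% of the values gave whole reads within 0.001. Each of the 12701 genes had at least 41 reads over the 8 libraries, so the table had been filtered. Recovered reads numbered 30756658 to 39572173 per library. The d15 columns carry numbers 2 and 3 and the titles 1 and 2, so these columns were assigned to the group only, as replicates A and B.

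The main test was limma 3.58.1 (R 4.3.3) with an intensity trend on log2(value + 1) of the 5 libraries, group as the only term (residual df 3, prior df 4.71), all genes tested. Adjusted p-values are limma's with Benjamini-Hochberg adjustment, two-sided, called at 0.05. Log2 fold changes carry the pseudocount of 1, so those of weakly expressed genes come out too small. Recovered reads were also tested with edgeR 4.0.16, DESeq2 1.42.0 and limma-voom, and the fit was repeated with other pseudocounts, a value filter, TMM factors, a length correction, no trend, all 8 libraries and each library left out. The limma step was tested on simulated data.

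Members and the 43 gene lists were chosen with earlier results of these data known, so no list count is independent support. Named were the 14 largest rises and 14 largest falls among called genes. These had to average 3 or more on the log2 scale, not overlap between the groups and have a gene symbol. Also named were the 3 best members by adjusted p of each macrophage state list. From each other list, the most abundant and the best member were taken. Siglecf, Itgax, Mertk and Cd68 were added. Some genes that meet this rule are not reported here. Further genes in the text were picked with their values known. Eosinophil and erythrocyte lists had 1 and 2 genes in the table, with no call (limma adjusted p = 0.328 for Ear6, 0.68 for Hbb-bs and 0.654 for Alas2). Gene positions are from GENCODE M21 and promoters from RefSeq.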

Additional observations from a re-analysis of the deposited data

How the results depend on the processing

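The number of genes called between d15 and d35 was 427 in the main test. It was 1211 with DESeq2 and 839 with all 8 libraries sharing the spread, and 149 with limma-voom, 190 without an intensity trend and 265 with a pseudocount of 4. Leaving out 1 library gave between 18 and 650 calls. The cause of these differences was not tested, except that leaving out a library leaves fewer samples. It stayed within 1.5 times of 427 with edgeR (440), TMM factors (433), a pseudocount of 0.5 (472), the length trend removed (574) and a value filter (411). Of the 427 genes, 427 were also called by DESeq2, 384 by edgeR and 148 by limma-voom, and 14 were called in every setting. Of 134 named genes 76 were called, 23 of them in all 10 other settings and 9 without any single library. Without d15 replicate A 66 of the 76 calls were lost, without replicate B 67, without d35 replicate 1 29, without replicate 2 1 and without replicate 3 22. With limma-voom 42 were lost, without an intensity trend 34, with a pseudocount of 4 17 and with all 8 libraries 1. No named gene changed direction in a called value. No paired analysis was possible because the d15 columns are numbered 2 and 3 and the d15 titles 1 and 2, so which titled sample a column holds is unknown. A block on the column numbers alone was not run. With 2 d15 libraries the spread at d15 rests on a single difference per gene. Genes with few reads at d15, such as Ido1 with 1 read and Ccl24 with 11, have fold changes whose size is set largely by the pseudocount and the tool. Over the alternative settings the log2 fold change ran from 0.73 to 7.42 for Ido1 and from 2.57 to 7.32 for Ccl24. Such genes are still counted among the calls, and the size of their change is uncertain. Intervals cover the spread between these libraries only.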

Other observations

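Genes outside the lists, chosen after their values were seen, are given here as single values and stand for no group. Gatm, which makes the creatine precursor from arginine, was at 10.5 and 9.39 scaled CPM at d15 and 61.1, 46.1 and 42.1 at d35 and rose, also without any single library (log2 fold change 2.20 ± 0.17 SE, limma adjusted p = 0.00149). Ass1, whose product turns citrulline into argininosuccinate on the way to arginine, was at 0.995 and 0.804 at d15 and 13.1, 4.98 and 8.07 at d35, and the spermine oxidase gene Smox at 17.3 and 15.3 at d15 and 41.9, 30 and 33.7 at d35 (limma adjusted p = 0.0158 and 0.0163). Odc1, which starts polyamine synthesis from ornithine, was at 51 and 50.9 at d15 and 52.7, 50.9 and 49.1 at d35 (limma adjusted p = 0.992), and the inducible nitric oxide synthase gene Nos2 at 0.0489 and 0.167 at d15 and 1.2, 0.593 and 0.51 at d35 (limma adjusted p = 0.136). Among genes of lipid mediators, Ptgs1 (cyclooxygenase 1) was at 9.57 and 8.99 at d15 and 64.1, 35.1 and 51.7 at d35, the prostacyclin receptor gene Ptgir at 11.4 and 5.63 at d15 and 67.2, 65.7 and 39.8 at d35 and the secreted phospholipase gene Pla2g2d at 0.375 and 0.106 at d15 and 32.5, 8.84 and 16.9 at d35 (limma adjusted p = 0.00419, 0.00672 and 0.00682). Ptgs2 (cyclooxygenase 2) was at 0.375 and 0.44 at d15 and 2.13, 0.441 and 1.92 at d35 (limma adjusted p = 0.265).

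Surface and secreted genes among the rises included Ece1, the endothelin-converting enzyme, at 10.7 and 13.1 at d15 and 73.8, 52.9 and 57.4 at d35, which was called without any single library, Sdc1 (syndecan 1) at 0.864 and 0.197 at d15 and 30.6, 13.1 and 22.2 at d35, and Vcam1 at 2.46 and 4.17 at d15 and 25.2, 14.6 and 20.6 at d35 (limma adjusted p = 0.00133, 0.0034 and 0.0067). The complement receptor gene C3ar1 was at 1.58 and 1.23 at d15 and 23.1, 5.83 and 10.1 at d35 (limma adjusted p = 0.0391). Among the falls were more genes of replication and division, such as Prim1 at 23.2 and 21.1 at d15 and 13.4, 14.4 and 12.6 at d35, Anln at 113 and 109 at d15 and 73.7, 71.6 and 56.2 at d35 and E2f1 at 78.3 and 70.9 at d15 and 54.2, 56 and 54 at d35 (limma adjusted p = 0.038, 0.0257 and 0.0396). Cenpa, a centromere histone gene, rose instead, at 29 and 23.7 at d15 and 44.3, 40.5 and 43.2 at d35 (limma adjusted p = 0.0262). Acp5, the osteoclast phosphatase, was at 245 and 237 at d15 and 551, 328 and 388 at d35 and Atp6v0d2, a proton pump subunit also needed for osteoclast fusion, at 3056 and 3174 at d15 and 2365, 2396 and 2229 at d35. They thus lay on opposite sides beside the rise of Dcstamp and Ocstamp, without passing the test (limma adjusted p = 0.0759 and 0.0962).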
